A study of Homo sapiens with 27 samples.

Results

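The subunits of the mitochondrial oxidative phosphorylation complexes that are encoded in the nucleus were followed by messenger RNA in MCF10DCIS.com cells given calcium oxalate crystals. The genes were taken by symbol, as the standard names of the NDUF subunits of complex I, the SDH subunits of complex II, the UQCR subunits of complex III, the main isoforms of the COX subunits of complex IV and the ATP5 subunits of complex V. This rule used no measured value. It found 74 of the 60683 genes in the tables, of which 37 belong to complex I, 4 to complex II, 8 to complex III, 10 to complex IV and 15 to complex V. All 74 passed the filter on low counts and were among the 16173 genes tested. The name rule places NDUFA4 with complex I, although the protein is now counted to complex IV.

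The human cell line MCF10DCIS.com descends from MCF10A breast epithelium and forms lesions like ductal carcinoma in situ when grown in mice. All groups started from 500000 cells per flask, and crystals were added after 6 h at 0.1 mg/mL, for an exposure whose length is not given in the sources used. COM libraries (n = 4) came from cells given plates of calcium oxalate monohydrate. The other forms were calcium oxalate dihydrate (COD), as dumbbells (DB, n = 4), spheres (SPH, n = 4), thick bipyramids (TK, n = 4) and thin bipyramids (TN, n = 4), and Control libraries (n = 7) came from untreated cells of the same line. Whether the libraries of a group are separate cultures is not stated in the labels. P-values therefore measure only the spread between these samples, and that spread may be technical.

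Each library held 13115649 to 38672448 counts with a median of 19251210. The serial numbers in the deposited names form 3 library sets. Set 1 holds the A and B libraries of Control, COM, DB, SPH and TN. Set 2 holds Control C to F, the C libraries of COM, DB, SPH and TN and all 4 TK libraries. Set 3 holds Control G and the D libraries of COM, DB, SPH and TN. The set was a term in the model for every comparison, as a difference taken to be the same in all groups. The mean length of the sequenced fragments, computed from the deposited lengths, was 258 to 319 nt in set 1, 198 to 243 nt in set 2 without TN C, and 215 to 248 nt in set 3. TN C stood apart from its set at 297 nt. The 8 markers of a basal breast epithelial line summed to 8550 to 14900 CPM (counts scaled to the library size) in every library, against at most 15.6 CPM for the 8 fibroblast markers. The 12 liver markers summed to 55.1 to 195 CPM in all groups other than TN, where the highest library reached 1420 CPM. The 8 leukocyte markers summed to at most 8.72 CPM outside TN and to 3.13 to 64.4 CPM in TN, with HBB at 0 in every library. The part of these markers in the TN values was not tested.

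Oxidative phosphorylation passes electrons from NADH and succinate through complexes I, II, III and IV to oxygen, and complex V uses the proton gradient built on the way to make ATP. A few core subunits are encoded in mitochondrial DNA, and all others are nuclear genes whose proteins are imported. Many of these nuclear genes are known to be bound by NRF1, by ETS factors such as GABP and by YY1 near their start sites.

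In untreated cells the subunits were abundant and unequal. Compared as TPM, which is scaled by library and by transcript length, the means over Control libraries ran from 17.6 TPM for NDUFV3, an accessory subunit of the NADH-oxidising arm of complex I, to 1010 TPM for ATP5ME, a membrane subunit of complex V. In CPM, which is not divided by length, NDUFV3 averaged 40.0 and ATP5ME 72.1 in Control. They are listed at 3109 and 303 nt, so the TPM range depends on the listed length. ATP5F1E of complex V, listed at 3426 nt, averaged 82.5 CPM but 31.3 TPM. The median over members was 157 TPM for complex I, 124 TPM for complex II, 269 TPM for complex III, 572 TPM for complex IV and 440 TPM for complex V. These medians carry the same dependence on listed length. Most members are short transcripts, which bears on the comparisons that follow. Their length in the tables ran from 303 to 3426 nt with a median of 752 nt, and 49 of 74 (66.2%) were under 1000 nt, against 11.3% of all genes tested.

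DB dumbbells were the crystal form with the most members called. Against Control, 31 of 74 subunits fell and none rose, at an adjusted p under 0.05, while 4.1% of all genes tested were called lower and 5.92% higher. Scaling by genes of at least 2000 nt alone gave 33 lower members, with 629 higher and 900 lower over all genes, in place of 957 higher and 663 lower. The estimate was below 0 for 73 of 74 members, with a median log2 fold change of -0.32, against -0.01 over all genes. Of all 16173 genes 8220 had an estimate below 0. Among the 1832 tested genes under 1000 nt 1437 were below 0, the median was -0.21 and 11.2% were called lower. In bulk RNA, fewer cells with a transcript and less of it per cell cannot be told apart. The plot of fold changes by crystal form shows the members for each form.

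**Figure D1:**
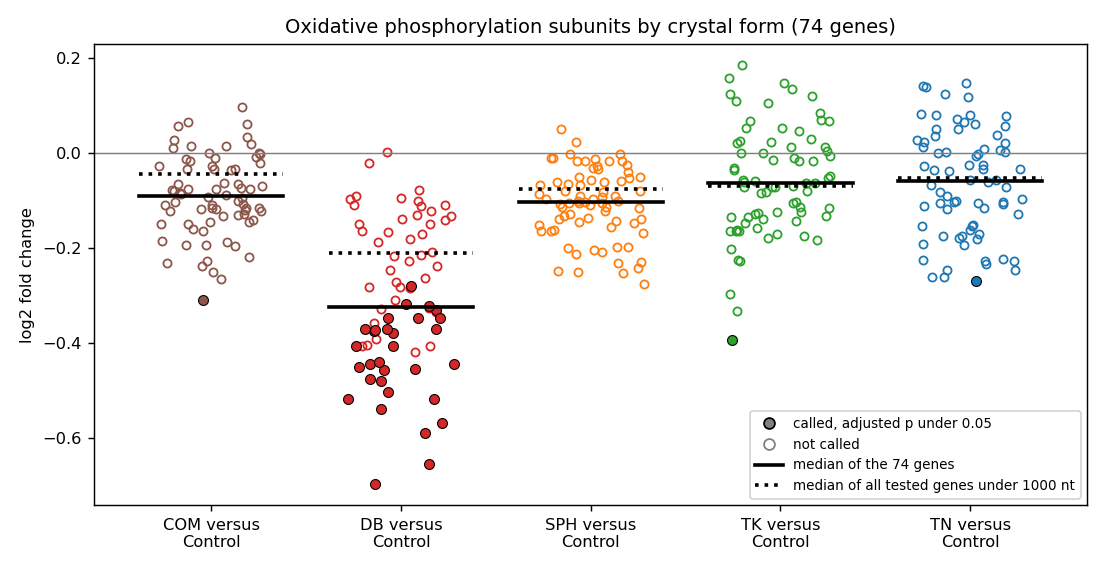
Log2 fold change over Control (vertical axis) of each of the 74 subunits for each crystal form, filled where called, with solid bars at the members' median and dotted bars at the median of all tested genes under 1000 nt. The DB points lie lowest, with a median of -0.32 and 31 filled points, and the other 4 forms have at most 1 filled point each.

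The 3 members with the smallest p for DB belong to 3 complexes. ATP5MC1 encodes the c subunit of the complex V rotor ring (protein coding, chromosome 17, 48892765 to 48895871, plus strand, GRCh38). Its level was 72.8, 65.7, 80.0 and 65.2 CPM in DB libraries A to D, against a lowest of 88.6, a median of 105 and a highest of 112 CPM in Control. All DB libraries lay below all Control libraries. ATP5MC1 fell by 0.57 on the log2 scale (SE 0.09, adjusted p = 0.00044). COX6B1, a complex IV subunit on the side facing the intermembrane space (chromosome 19, 35648223 to 35658861, plus strand), was at 137, 129.6, 132 and 142 CPM in DB libraries, against 159, 178.5 and 205 CPM as lowest, median and highest in Control. The groups again did not overlap, and COX6B1 fell by 0.52 (SE 0.10, adjusted p = 0.0011). NDUFB4, an accessory subunit of the membrane arm of complex I (chromosome 3, 120596309 to 120602500, plus strand), was at 94.5, 98.3, 82.4 and 99.3 CPM in DB libraries, against 99.7, 117 and 131 CPM in Control. The highest DB library came within 1 CPM of the lowest Control library, and NDUFB4 fell by 0.38 (SE 0.08, adjusted p = 0.0032).

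The authors' TPM values, which divide by an effective length that depends on fragment length, gave smaller gaps for these genes. ATP5MC1 averaged 332 ± 53.3 TPM in DB and 440 ± 42.6 TPM in Control (SD, n = 4 and 7). COX6B1 averaged 757 ± 75.5 TPM in DB and 861 ± 82.4 TPM in Control. NDUFB4 averaged 295 ± 31.7 TPM in DB and 327 ± 38.3 TPM in Control, a gap below the SD of either group.

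**Figure D2:**
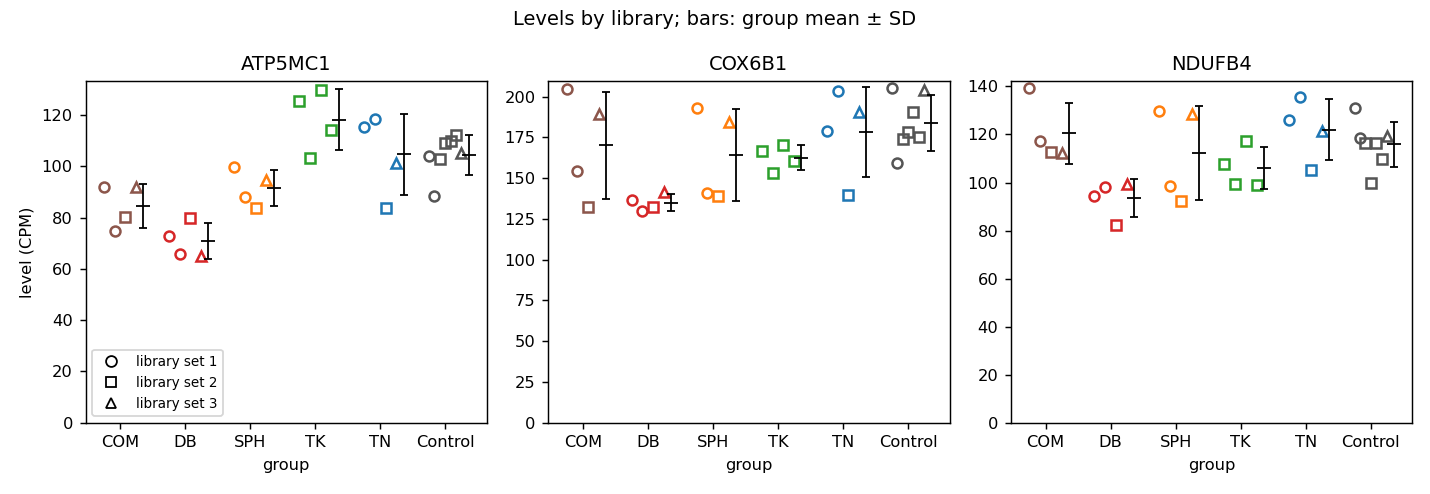
Level in CPM (vertical axis, from 0) of ATP5MC1, COX6B1 and NDUFB4 in each library by group, with the marker shape giving the library set and bars the group mean ± SD. DB libraries lie at 65.2 to 80.0 CPM for ATP5MC1, below every Control library, and TK libraries at 103 to 129.6 CPM.

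The promoters of these 3 genes are shown because the genes had the smallest p for DB. Matches to motifs that many subunit genes carry are marked, and the part of these motifs in the fall was not tested. Each is 300 bases from RefSeq on GRCh38.p14, 5′ to 3′, from 250 bases before the annotated start to 50 after it, with motif matches in capitals. ATP5MC1 lies at chr17:48892537-48892836, COX6B1 at chr19:35648073-35648372 and NDUFB4 at chr3:120596086-120596385, all on the plus strand.
ATP5MC1: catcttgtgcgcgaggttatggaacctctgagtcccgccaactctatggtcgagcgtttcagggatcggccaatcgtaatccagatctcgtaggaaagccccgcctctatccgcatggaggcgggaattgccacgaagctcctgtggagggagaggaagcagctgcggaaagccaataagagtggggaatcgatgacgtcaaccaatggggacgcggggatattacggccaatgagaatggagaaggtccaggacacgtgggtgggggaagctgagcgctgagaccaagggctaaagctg
COX6B1: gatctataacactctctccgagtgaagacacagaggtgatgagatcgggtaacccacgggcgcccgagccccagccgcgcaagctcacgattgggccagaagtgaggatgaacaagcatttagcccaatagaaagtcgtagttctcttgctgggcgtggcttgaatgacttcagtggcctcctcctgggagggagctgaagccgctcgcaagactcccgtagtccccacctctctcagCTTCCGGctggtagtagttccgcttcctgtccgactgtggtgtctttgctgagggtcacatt
NDUFB4: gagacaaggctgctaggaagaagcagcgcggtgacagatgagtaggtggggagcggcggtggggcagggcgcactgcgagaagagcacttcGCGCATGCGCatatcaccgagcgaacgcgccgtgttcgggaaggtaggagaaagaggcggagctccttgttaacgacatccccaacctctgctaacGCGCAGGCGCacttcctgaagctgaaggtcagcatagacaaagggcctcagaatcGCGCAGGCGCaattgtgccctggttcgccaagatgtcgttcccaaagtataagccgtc
The motifs searched on both strands were GCGC followed by any 2 bases and GCGC (NRF1), CCGGAAG (ETS factors such as GABP) and AAGATGGC (YY1). An end of CCGGAAG and the start of AAGATGGC can share the bases AAG, and such overlaps were counted for both. The ATP5MC1 window held none of these letters, the COX6B1 window held 1 ETS match on the reverse strand, and the NDUFB4 window held 3 NRF1 matches.

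Promoters were listed for 61 of the 74 members. NRF1 letters stood in 16 of 61 windows (26.2%), against 8.78% of all 27305 promoters of the same length. ETS letters stood in 19 (31.1%), against 10.7% of all promoters, and YY1 letters in 11 (18%), against 3.03%. At least 1 of the motifs stood in 37 windows (60.7%), against 19.9%. Among members with a listed promoter, a match stood in 14 of the 26 that fell with DB and in 23 of the 35 that were not called. A match is a description of the letters and not a bound site.

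Complex I had 14 of 37 members lower with DB and a median log2 fold change of -0.31. The estimates differed widely within the complex. NDUFB1, a small membrane subunit (chromosome 14, 92116122 to 92121917, minus strand), had the lowest estimate, with 19.9 ± 5.34 CPM in DB and 33.6 ± 8.40 CPM in Control (SD, n = 4 and 7). The DB library C lay above the lowest Control library, which was at 22.3 CPM, and NDUFB1 fell by 0.70 (SE 0.20, adjusted p = 0.027). NDUFS5, an accessory subunit (chromosome 1, 39026318 to 39034636, plus strand), fell by 0.54 (SE 0.13, adjusted p = 0.0088), and NDUFA2, an accessory subunit of the NADH-oxidising arm, fell by 0.52 (SE 0.13, adjusted p = 0.016). NDUFV3 (chromosome 21, 42879644 to 42913304, plus strand) is listed at 3109 nt and fell by 0.32 (SE 0.07, adjusted p = 0.0045). Its level was 32.1, 33.3, 30.5 and 33.2 CPM in DB, against 35.3, 40.5 and 43.3 CPM in Control, with no overlap. The catalytic subunits followed here were not called. NDUFS1, which carries iron-sulfur clusters, averaged 106 ± 8.07 CPM in DB and 107 ± 4.90 CPM in Control, at a log2 fold change of 0.00 (SE 0.05, adjusted p = 0.98). NDUFV1, which binds the flavin that takes electrons from NADH, was at -0.15 (SE 0.09, adjusted p = 0.30).

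In complex II, which oxidises succinate, only the catalytic flavoprotein SDHA was called. SDHA (chromosome 5, 218241 to 256700, plus strand) was at 106, 106, 120.4 and 127 CPM in DB libraries, against 117, 138 and 159 CPM in Control, and fell by 0.28 (SE 0.07, adjusted p = 0.011). The ranges overlapped. Of the counts given to SDHA and its named pseudogenes together, the pseudogenes held 9.46%, the largest share of any member, so its counts are less certain. SDHB, the iron-sulfur subunit, was at -0.14 (SE 0.07, adjusted p = 0.24), and the membrane anchors SDHC and SDHD were not called.

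Complex III, which passes electrons from ubiquinol to cytochrome c, had 3 of 8 members lower and a median of -0.34. UQCR10, a small accessory subunit (chromosome 22, 29767369 to 29770413, plus strand), was at 40.7, 36.8, 41.0 and 43.8 CPM in DB, against 48.4, 53.3 and 57.4 CPM in Control. There was no overlap, and UQCR10 fell by 0.40 (SE 0.09, adjusted p = 0.0072). UQCRB fell by 0.44 (SE 0.13, adjusted p = 0.031). UQCRH, the hinge subunit, fell by 0.44 (SE 0.13, adjusted p = 0.036), although 1 DB library reached 182 CPM, inside the Control range of 138 to 257 CPM. The core subunit UQCRC1 was at -0.16 (SE 0.08, adjusted p = 0.17), and the Rieske iron-sulfur protein UQCRFS1 was at -0.12 (SE 0.08, adjusted p = 0.33).

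Complex IV, which reduces oxygen, had 5 of 10 members lower and a median of -0.40. Beside COX6B1 these were the small subunits COX7B, COX7C, COX7A2 and COX8A. COX7B (chromosome X, 77899438 to 77907373, plus strand) was at 60.9, 57.3, 55.6 and 54.6 CPM in DB, against 64.5, 73.9 and 85.3 CPM in Control, without overlap, and fell by 0.45 (SE 0.09, adjusted p = 0.0036). COX7C fell by 0.45 (SE 0.11, adjusted p = 0.0098). COX4I1, a regulatory subunit, was at -0.33 (SE 0.12, adjusted p = 0.088) and COX5A at -0.21 (SE 0.08, adjusted p = 0.090).

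Complex V, the ATP synthase, had 8 of 15 members lower and a median of -0.33. All 3 genes of the c subunit, whose proteins share a mature sequence after the import signal is removed, were among them. ATP5MC2 (chromosome 12, 53632726 to 53677408, minus strand) was at 127, 133, 127 and 133 CPM in DB, against 141, 167.5 and 187 CPM in Control, without overlap, and fell by 0.35 (SE 0.09, adjusted p = 0.013). ATP5MC3 (chromosome 2, 175176258 to 175184607, minus strand) fell by 0.37 (SE 0.09, adjusted p = 0.014). ATP5ME (chromosome 4, 672436 to 674338, minus strand), the shortest member at 303 nt, fell by 0.66 (SE 0.18, adjusted p = 0.023), with overlapping ranges of 28.2 to 61.0 CPM in DB and 48.9 to 108 CPM in Control. ATP5F1E, the epsilon subunit of the central stalk, fell by 0.33 (SE 0.10, adjusted p = 0.027). The head subunits that form the catalytic sites were not called. ATP5F1A was at -0.18 (SE 0.06, adjusted p = 0.051) and ATP5F1B at -0.10 (SE 0.06, adjusted p = 0.34).

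**Figure D3:**
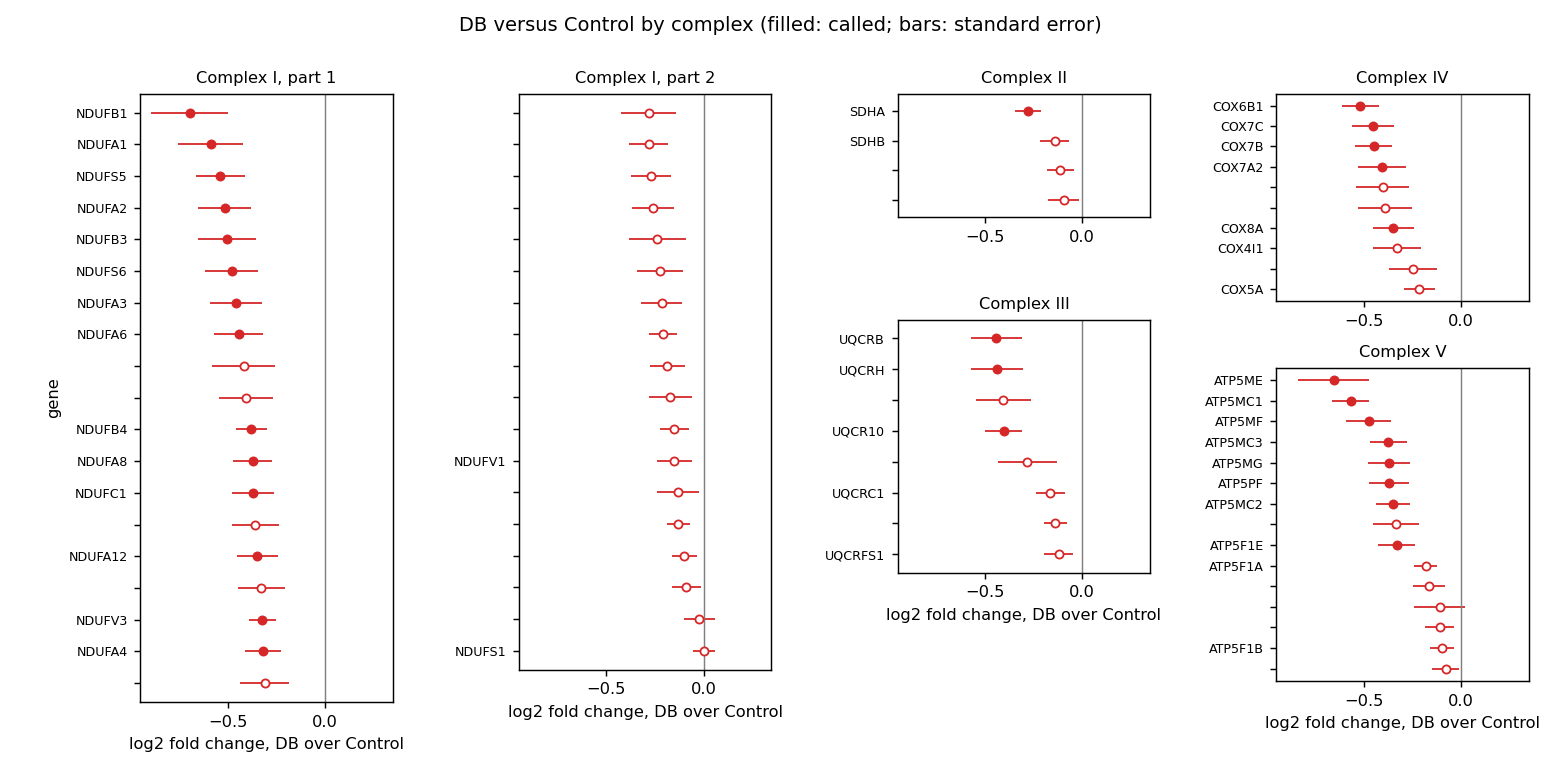
Log2 fold change of DB over Control (horizontal axes) for each of the 74 subunits, 1 panel per complex with complex I in 2 panels, with the standard error as bars, filled points where called and names for called and followed genes. The estimates run from -0.70 for NDUFB1 to 0.00 for NDUFS1, and filled points stand in all 5 complexes.

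The number of members called for DB depended on single libraries. It was 16 without DB A, 13 without DB B, 8 without DB D and 48 without Control B, and 22 to 40 without Control A or DB C. The count over all genes moved as well, from 1620 with every library to between 760 and 1995 with 1 library left out. Values within sets came from 1 edgeR fit with a mean per group and set, whose spread is shared by all groups. A group with 1 library in a set, such as DB in sets 2 and 3 and Control in set 3, is there assumed to vary like the others. In the test of the DB effect in set 2 minus that in set 1, 0 members were called and 0 had an unadjusted p under 0.05, where 0.0866% of all genes were called. Within sets the median log2 fold change of the members was -0.24 in set 1, -0.23 in set 2 and -0.28 in set 3, with 1, 0 and 1 members called, where 0.587%, 0.0433% and 0.903% of all genes were called lower. ATP5MC1 was at -0.48 (SE 0.12, adjusted p = 0.039) within set 1 and -0.44 (SE 0.14, adjusted p = 0.23) within set 2. COX6B1 was at -0.45 (SE 0.14, adjusted p = 0.12) within set 1 and -0.44 (SE 0.17, adjusted p = 0.41) within set 2. Set 3 sets DB D against Control G, 1 library each, which differed by -0.69 for ATP5MC1 and -0.53 for COX6B1. Each median within a set was smaller in size than the -0.32 of the model with a set difference shared by all groups.

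Fragment length moved with both the groups and the members. It was 233 to 319 nt in DB and 198 to 269 nt in Control. In the model with group and set, 17 members fell with fragment length and none rose, where 4.24% of all genes and 12% of genes under 1000 nt were called lower. The estimates per 10 nt were -0.14 (SE 0.02, adjusted p = 0.00103) for NDUFB1, -0.13 (SE 0.02, adjusted p = 0.00103) for ATP5ME and -0.12 (SE 0.02, adjusted p = 0.0014) for NDUFA1. These rest on few libraries, since the count of 17 was 0 without TN C, 3 without TN B, 10 without Control D and 11 without DB C.

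With fragment length as a further term, 5 of the 31 members kept their call for DB and the median over members was -0.19, where 1.73% of all genes were called lower. The 5 were ATP5MC1 at -0.47 (SE 0.10, adjusted p = 0.0060), COX6B1 at -0.44 (SE 0.10, adjusted p = 0.013), NDUFB4 at -0.40 (SE 0.09, adjusted p = 0.0093), COX7B at -0.38 (SE 0.10, adjusted p = 0.034) and NDUFV3 at -0.26 (SE 0.07, adjusted p = 0.047). All 74 estimates were then below 0. ATP5ME came to -0.28 (SE 0.13, adjusted p = 0.24) and NDUFB1 to -0.29 (SE 0.14, adjusted p = 0.27), nearer 0 than without the term. With the effective length of each gene in each library as an offset, 14 members were called where 2.13% of all genes were called lower, the median was -0.26, and NDUFB4 was at -0.27 (SE 0.09, adjusted p = 0.078). Without these terms, 24 of the 49 members under 1000 nt and 7 of the 25 longer ones fell with DB, at medians of -0.37 and -0.15. The plot by transcript length shows both sets of estimates.

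**Figure D4:**
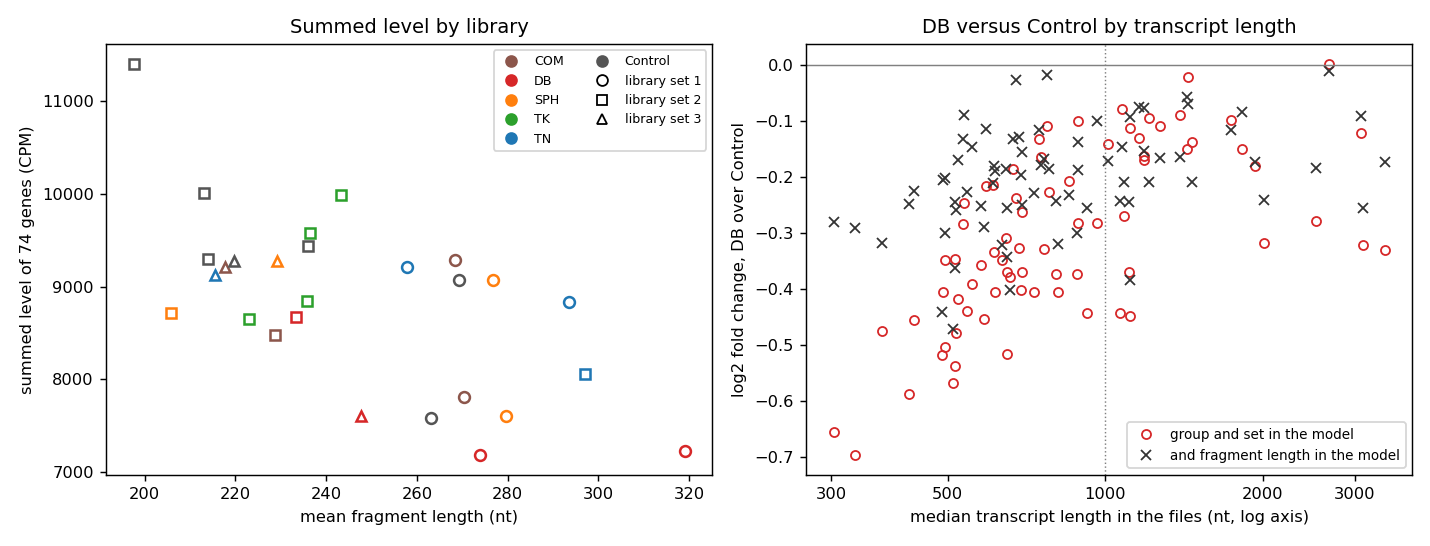
Left, summed level of the 74 subunits in CPM against mean fragment length in nt for each library, by group and library set. Right, log2 fold change of DB over Control against transcript length (log axis) with and without fragment length in the model. The DB libraries sum to 7179 to 8669 CPM at 233 to 319 nt, Control D has the shortest fragments and the highest sum, and the estimates of the 2 shortest transcripts shift toward 0.

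The summed level of the 74 members was 7670 ± 693 CPM in DB and 9440 ± 1140 CPM in Control (SD, n = 4 and 7), with ranges of 7179 to 8669 and 7584 to 11410 CPM that overlapped. The sums were 8697 ± 692 CPM in COM, 8663 ± 746 CPM in SPH, 9264 ± 624 CPM in TK and 8805 ± 524 CPM in TN, all inside the Control range.

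With COM plates 1 member was called, and with SPH spheres none. The COM member was ATP5MC1, at 91.8, 74.7, 80.3 and 91.8 CPM in COM libraries against 88.6 to 112 CPM in Control. The ranges overlapped, and ATP5MC1 fell by 0.31 (SE 0.09, adjusted p = 0.048), where 2.42% of all genes were called lower. That call sat at the threshold. It was lost without COM A, B or C, without any 1 of Control A and C to G, and without DB A, SPH A, SPH C or TK D, and 2 members were called without Control B. The median over members was -0.09 for COM, with 63 of 74 estimates below 0, against -0.01 over all genes. Of genes under 1000 nt 1079 of 1832 were below 0 with COM, at a median of -0.04. The direction of the members differed between sets, since the COM median in set 1 was 0.04, with 22 estimates below 0. With 1 COM library each it was -0.23 in set 2 and -0.02 in set 3. With SPH no member was called by edgeR or by DESeq2, 5 had an unadjusted p under 0.05 and 0.111% of all genes were called. The SPH estimates were below 0 for 72 of 74 members at a median of -0.10. Of genes under 1000 nt 1269 of 1832 were below 0, at a median of -0.08, and of all genes 8342 of 16173. Within set 1 only 34 members were below 0 with SPH, at a median of 0.01. COX6B1 with SPH was at -0.24 (SE 0.10, adjusted p = 0.66).

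With TK and with TN bipyramids 1 member each was called lower, in both cases the c subunit gene ATP5MC2. Its level was 128, 118.5, 132 and 115 CPM in TK libraries, against 141, 167.5 and 187 CPM in Control. No TK library reached the lowest Control library, and ATP5MC2 fell by 0.39 (SE 0.09, adjusted p = 0.0035) where 7.33% of all genes were called lower. Within set 2, which holds all TK libraries and 4 Control libraries, it was at -0.40 (SE 0.11, adjusted p = 0.020), and with fragment length in the model at -0.38 (SE 0.09, adjusted p = 0.0057). In TN libraries ATP5MC2 was at 134, 148, 131 and 136 CPM, which overlapped Control, and fell by 0.27 (SE 0.09, adjusted p = 0.041) where 4.88% of all genes were called lower. The TN call was lost without TN A, C or D and without Control A, D, E or G. TN C also set the TN values within set 2, and in the TN effect in set 2 minus that in set 1, 12 members were called lower, where 2.75% of all genes were. TN C is the only TN library in set 2, so this test assumes that it varies like the others. Of the other c subunit genes in TK, ATP5MC1 was at 0.19 (SE 0.09, adjusted p = 0.19) and ATP5MC3 at 0.05 (SE 0.10, adjusted p = 0.76), and a difference between these genes was not tested. Median log2 fold changes over members were -0.06 for TK and -0.06 for TN, against -0.07 and -0.05 over genes under 1000 nt. Taken by set, the TN median was 0.14 in the first, -0.36 in the second, where TN C stands alone, and -0.03 in the third. With fragment length in the model it was 0.02. All these comparisons share the Control libraries, so they are not independent of each other.

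Between the crystal forms, DB against the mean of COM, SPH, TK and TN was added after the data had been seen. In it 14 members were lower, none was higher and all 74 estimates were below 0, at a median of -0.22, where 4.09% of all genes were called lower and 4.14% higher. Among genes under 1000 nt 9.22% were called lower and 0.873% higher, and 1341 of 1832 estimates were below 0, at a median of -0.15. Scaling by genes of at least 2000 nt gave 421 higher and 907 lower genes in place of 669 and 662, with 12 members lower. ATP5MC1 was lower by a log2 fold change of -0.49 (SE 0.08, adjusted p = 0.0011) and NDUFB4 by -0.34 (SE 0.07, adjusted p = 0.0045). The count of members was 3 without DB D, 5 without DB B, 8 without DB A, and 9 without COM A, COM D, SPH A, SPH D, TK A, TK C, TN A or TN B. It was 23 without DB C, 24 without Control D and 30 without TN C. DB against SPH, also added later, called no member in edgeR, with 19 at an unadjusted p under 0.05 and a median of -0.21, where 0.247% of all genes were called. DESeq2 called 1 there, as edgeR did without DB C.

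TK and TN together against DB and SPH together, the bipyramids against the rounded dihydrate forms, gave 13 members higher and none lower. Among genes under 1000 nt 12% were called higher and 2.89% lower, and among all genes 10.3% and 9.46%. With scaling by genes of at least 2000 nt these were 2064 higher and 1130 lower genes, in place of 1671 and 1530, and 14 members were higher. The 13 included ATP5MC1 at 0.47 (SE 0.08, adjusted p = 0.00012), UQCR10 at 0.36 (SE 0.08, adjusted p = 0.0015) and COX7B at 0.30 (SE 0.08, adjusted p = 0.0079). ATP5MC1 averaged 118 ± 11.8 CPM in TK and 105 ± 15.9 CPM in TN, against 70.9 ± 6.96 CPM in DB and 91.6 ± 7.02 CPM in SPH (SD, n = 4 each). The count was 8 without SPH C, 8 without TN A and 25 without TN C. It was 19 with fragment length in the model, where 11.7% of all genes were called higher and 11.2% lower.

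COM against the 4 dihydrate forms called no member in edgeR, with 3 at an unadjusted p under 0.05, and 3.79% of all genes called. TN against TK, which have the same hydrate and habit and differ in thickness, also called none, with 0 at an unadjusted p under 0.05 and 0.216% of all genes called. In TN over TK, ATP5MC1 was at -0.19 (SE 0.12, adjusted p = 0.60) and ATP5MC2 at 0.12 (SE 0.10, adjusted p = 0.74). A joint test over all 6 groups called 13 of 74 members, where 23.2% of all genes were called. That count was 8 without DB B, 7 without DB D and 28 without TN C.

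Library sets also differed in these genes. In set 2 relative to set 1, 15 members were higher and 4 lower, where 13.4% of all genes were called higher and 14% lower. Among genes under 1000 nt these shares were 13.8% and 8.84%. ATP5F1B, the beta subunit of the catalytic head, was higher by 0.22 (SE 0.05, adjusted p = 0.0011), and NDUFA6, an accessory subunit of complex I, by 0.44 (SE 0.10, adjusted p = 0.0013). NDUFB4, COX6B1, COX7B and SDHC were the 4 that were lower. With effective lengths as an offset 8 members were higher and 10 lower. The count of 19 was 10 without Control B, 7 without DB C, 12 without SPH C and 36 without TN C. Fragment length differs between the same sets, and what the sets stand for is not stated in the labels, so culture run and library preparation cannot be told apart. Among untreated cells alone, 17 members were higher in the Control libraries of set 2 than in those of set 1 and none was lower. Of all genes 6.47% were called higher and 7.46% lower there, and of genes under 1000 nt 11.4% and 3.11%. The median over members was 0.264 in untreated cells, against 0.105 for the set difference shared by all groups.

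Genes that act with the subunits were counted from lists. Of 54 assembly factors, which build the complexes, 10 fell with DB and none rose, where 4.1% of all genes and 11.2% of genes under 1000 nt were called lower. They included TMEM186 at -0.38 (SE 0.09, adjusted p = 0.012) and the copper chaperone COX17 at -0.48 (SE 0.13, adjusted p = 0.017). Of 78 mitochondrial ribosomal proteins 21 fell with DB and none rose, with MRPL18 at -0.36 (SE 0.08, adjusted p = 0.0038), and of 81 cytosolic ribosomal proteins 17 fell and none rose, with RPL38 at -0.60 (SE 0.14, adjusted p = 0.0082). Transcripts under 1000 nt made up 18 of the 54 assembly factors, 29 of the 78 mitochondrial ribosomal proteins and 72 of the 81 cytosolic ones, and their part in these counts was not tested. Of 24 import translocase genes 5 fell and 1 rose, and of 19 glycolysis genes 4 fell, against the same 4.1% of all genes lower and 5.92% higher. Of 21 citrate cycle and pyruvate genes 1 fell, a share near that of all genes, which was SUCLG1 at -0.27 (SE 0.06, adjusted p = 0.0089). None of the 11 mitochondrially encoded subunit genes was called for DB by edgeR, and 0 of them had an unadjusted p under 0.05, at a median of -0.02.

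Of 19 measured regulators of mitochondrial biogenesis 1 was called for DB, a share near the 4.1% of all genes called lower. It was POLRMT, the mitochondrial RNA polymerase, at -0.29 (SE 0.08, adjusted p = 0.027). NRF1 was at -0.15 (SE 0.07, adjusted p = 0.20) and GABPA at 0.09 (SE 0.11, adjusted p = 0.64). With TK, where 1 subunit was called, 3 of the 19 regulators rose, and 8.04% of all genes were called higher. They were TFAM, which packages mitochondrial DNA and helps start its transcription, at 0.35 (SE 0.08, adjusted p = 0.0029), TFB2M at 0.26 (SE 0.07, adjusted p = 0.0084) and MTERF1 at 0.27 (SE 0.08, adjusted p = 0.031). The electron carrier CYCS, cytochrome c, rose with TK by 0.45 (SE 0.10, adjusted p = 0.0028) and with TN by 0.32 (SE 0.10, adjusted p = 0.030).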

How the data were processed

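Each of the 27 libraries had 1 deposited table of 60683 genes. Per the file headers, the authors deposited RSEM expected counts, TPM and gene lengths, and Bowtie2, RSEM, Trim Galore and the build GRCh38 are named in the submitters' processing notes. Their versions and parameters, the annotation and the strandedness are not given in the sources used. RSEM shares reads between similar genes, and 45 members have named pseudogenes, 39 overlap a gene on the other strand and 28 one on the same strand, so their counts carry that uncertainty. Coordinates are from GENCODE 29 on GRCh38, matched by Ensembl identifier.

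Expected counts were rounded, filtered with filterByExpr, scaled by TMM and fitted in 1 edgeR 4.0.16 quasi-likelihood model (R 4.3.3) with group and library set over all 27 libraries. P-values were adjusted by Benjamini-Hochberg over all 16173 genes tested, and calls were made at 0.05. Levels are CPM on the scaled library size, and fold changes are log2. Mean fragment length was the deposited length minus the effective length plus 1, from genes of at least 3000 nt and 500 counts. The fit was tested on simulated data. The simulated counts held no difference by library set or fragment length, so that test does not bear on either. Pairs of libraries within a group all differed by more than sampling noise (chi-square over degrees of freedom 2.463 to 70.37), and each counted as 1 sample. This ratio cannot show whether libraries are separate cultures. It was 2.463 to 8.332 between TK libraries and 3.054 to 5.729 between Control C, E and F. Control D differed from these by 12.71 to 21.26, and the A and B libraries of a group in set 1 differed by 10.72 to 31.22. Named members are 16 followed in every comparison and the 6 called with the smallest p per comparison with Control, plus members called anywhere. For other genes, up to 4 called per list and comparison were eligible. Members and lists were chosen with earlier results of these data known.

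Alternatives were DESeq2 1.42.0, other size factors, scaling by genes of at least 2000 nt, no filter, no set term, a replicate block, fragment length or effective length in the model, single sets, TN C moved to set 1, pseudogene counts added, and each library left out.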

Additional observations from a re-analysis of the deposited data

Results flagged for a closer look

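Dixon's test was applied to 144 groups of libraries, for followed members and further values such as ATP5MC1 and UQCR10. Of these groups 5 held a library far from the others. About 1 in 20 groups would be picked by chance. NDUFV1 was at 114 CPM in COM B, below the other COM libraries. SDHB was at 89.0 CPM in TN D, below the other TN libraries. UQCRH was at 182 CPM in DB C, above the other DB libraries, and UQCR10 at 60.8 CPM in TK C, above the other TK libraries. ATP5MC1 was at 88.6 CPM in Control B, the lowest of the 7 Control libraries.

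The effect of TN differed between library sets. In the test of the TN effect in set 2 minus that in set 1, 12 members were called, all lower, where 2.75% of all genes and 7.48% of genes under 1000 nt were called lower. For ATP5MC1 the difference was -0.65 on the log2 scale (SE 0.18, adjusted p = 0.038), and for ATP5MC3 it was -0.62 (SE 0.18, adjusted p = 0.045). TN has 1 library in set 2, TN C, with fragments of 297 nt, so this difference and that library cannot be told apart. The spread in this test came from all groups, and TN C is assumed to vary like the other libraries.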

How the results depend on the processing

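Numbers of members called changed as follows, and where no cause follows from the setting itself the cause was not tested. The DB count of 31 became 14 with effective lengths as offset, 5 with fragment length and 1 within set 1. It was 16 without the set term, where 2.49% of all genes were called lower. The COM count of 1 became 0 when scaled by long genes, with TN C in set 1, with effective lengths, without the set term and within each set. The TN count of 1 became 0 when scaled by long genes, with fragment length, without the set term and within sets 1 and 3, and 15 within set 2, while with effective lengths the 1 member called was NDUFB5, higher by 0.25 (adjusted p = 0.049). With no filter the counts were 3 for TK, 41 for the joint test, 23 for the bipyramids, 29 for the library set, 35 for DB against the other forms and 8 for DB against SPH. The joint count of 13 was 5 with effective lengths and 7 without the set term. TN against TK within set 2 rests on TN C alone for TN, so no count is given for it either. The library set count of 19 was 34 with TN C in set 1 and 2 with fragment length, and with effective lengths it was 18 and turned to mostly lower. DB against the other forms gave 25 by DESeq2, 22 with TN C in set 1, 4 with effective lengths and 5 without the set term, and DB against SPH gave 1 by DESeq2. The fragment length count of 17 was 2 with TN C in set 1, 3 with effective lengths and 40 without the set term. Leaving out 1 library gave 0 to 2 for COM, 8 to 48 for DB, 0 to 1 for TN, 7 to 28 for the joint test, 8 to 25 for the bipyramids, 0 to 23 for fragment length, 7 to 36 for the library set, 3 to 30 for DB against the other forms and 0 to 1 for DB against SPH. Counts over all genes moved too, to 531 to 1135 for COM, 760 to 1995 for DB and 745 to 2213 for TN. They were 3070 to 4671 for the joint test, 1974 to 3896 for the bipyramids and 50 to 1922 for fragment length. For the library set they were 3509 to 5324, for DB against the other forms 317 to 2002 and for DB against SPH 0 to 134. Replicate letters were also tried as a block, although of 60 same-letter pairs only 27 had deviations correlated above 0.1 and nothing in the labels pairs them. Under the block the counts were 3 for DB, 0 for COM and TN and 20 for the bipyramids. For DB under the block, 0.903% of all genes were called lower. ATP5MC2 kept its TK call in all 38 alternatives run for it, and ATP5MC1 its DB call in 39 of 40, the exception being within set 2. None of the 17 calls against Control, of followed members and of those named for the smallest p, changed sign. Signs did turn where members were not called, and the median over members was above 0 within set 1 for COM, SPH and TN. Counts within a set use a spread shared by all groups, and a group with 1 library there (COM, DB, SPH and TN in set 2, every group in set 3) is assumed to vary like the others.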

Other observations

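Other mitochondrial gene groups differed between the bipyramids (TK and TN) and the rounded dihydrate forms (DB and SPH). Of 78 mitochondrial ribosomal proteins, which translate the mitochondrially encoded subunits, 37 were higher in the bipyramids and none was lower. Of all genes 10.3% were called higher there, and of genes under 1000 nt 12%. MRPL1 was at 0.42 (SE 0.07, adjusted p = 0.00011) and MRPS11 at 0.44 (SE 0.08, adjusted p = 0.0002). Of 24 import translocase genes 14 were higher and none lower, with the outer membrane channel TOMM40 at 0.44 (SE 0.08, adjusted p = 0.00054). Of 54 assembly factors 20 were higher and 1 lower, with the complex I factor ACAD9 at 0.25 (SE 0.04, adjusted p = 0.00013).

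Of 9 measured carriers and further subunits outside the name rule, 2 fell with DB, where 4.1% of all genes were called lower. They were NDUFAB1, the mitochondrial acyl carrier protein, at -0.30 (SE 0.09, adjusted p = 0.033), and the read-through gene NDUFC2-KCTD14 at -1.23 (SE 0.39, adjusted p = 0.042), whose reads cannot be told apart from those of NDUFC2 with certainty. All 11 mitochondrially encoded subunit genes were lower in library set 2 than in set 1, at a median log2 difference of -0.83, where 14% of all genes were called lower.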
